A study of Homo sapiens with 7 samples.

Results

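The 10 genes described here were chosen by name as the core of the microRNA and siRNA pathway, which is 10 of the 16045 genes with sense reads in the deposited tables. They are DROSHA and DGCR8, XPO5, DICER1, the Argonaute genes AGO1, AGO2 and AGO3 (listed as EIF2C1, EIF2C2 and EIF2C3), and TNRC6A, TNRC6B and TNRC6C. All 10 had sense polyadenylation sites (PASs) in each of the 3 tables, which held 66, 55 and 42 of their PASs.

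The libraries were made by 3′READS, which sequences the last bases of RNA before the poly(A) tail, from total RNA of HEK293 cells, a human embryonic kidney line. Cells had received either a non-targeting siRNA, named siCtrl, or siRNAs that target the nuclear poly(A) polymerases Star-PAP (gene TUT1), PAPα (PAPOLA), PAPγ (PAPOLG), or PAPα and PAPγ together (siPAPα+γ). In the first batch there was 1 library each of siCtrl and of the Star-PAP, PAPα and PAPγ single knockdowns (siStar-PAP, siPAPα and siPAPγ). A second batch, made by the modified protocol 3′READS+, held a further siCtrl and siStar-PAP library, and the siPAPα+γ library, made by 3′READS, was tabulated with siCtrl of the first batch but has no batch in the labels, so that batch and knockdown cannot be told apart for it. All 7 libraries thus came from cells of 1 line that had received siRNA, and no library of cells without siRNA was analysed here, so an effect of transfected siRNA that is shared by all libraries cannot be told apart from the ordinary state of these genes.

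MicroRNA hairpins are cut from primary transcripts in the nucleus by the RNase DROSHA with its RNA-binding partner DGCR8, are carried to the cytoplasm by exportin 5 (XPO5), and are trimmed to duplexes by DICER1. A single strand is loaded into an Argonaute protein, and transfected siRNA duplexes enter at the same step. The TNRC6 (GW182) proteins bind Argonaute and bring in deadenylases. Many mRNAs of the pathway have long 3′UTRs with several PASs, and are themselves targets of microRNAs, so the PAS that is used sets which sites an mRNA carries.

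The tables held between 2347192 sense reads (siStar-PAP, batch 2) and 16191098 sense reads (siPAPα) per library. The siPAPα+γ table repeats siCtrl of the first batch, with the same read number at 99.7% of 33799 shared PASs, so the comparisons of siStar-PAP in batch 1, siPAPα, siPAPγ and siPAPα+γ all share 1 siCtrl library. The targeted genes were read first. TUT1 had 7.26 RPM (PAS-supporting reads scaled to the total of the library, the level used throughout) in siCtrl and 0.12 in siStar-PAP of batch 1, and PAPOLA had 6.21 in siCtrl, 0.48 in siPAPα and 0.43 in siPAPα+γ. TUT1 in batch 2 (6 reads in siCtrl, 4 in siStar-PAP) was too shallow for a check. PAPOLG was not lower in the library labelled siPAPγ (15 reads, 1.01 RPM) than in siCtrl (5 reads, 0.44 RPM), and had 6 reads in siPAPα+γ. At this depth a fall of PAPOLG was hardly detectable. The study reports from immunoblots that the knockdowns, PAPγ included, were efficient, with no apparent change of the other PAPs. Those immunoblots were not analysed here. In the reads, PAPOLA was also lower by over 2-fold in siStar-PAP of batch 1 (2.66 RPM, 44 reads) than in siCtrl (71 reads). PAPOLA was within 2-fold of siCtrl in the library labelled siPAPγ (4.46 RPM) and in batch 2 (34 reads in siStar-PAP, 45 in siCtrl). TUT1 was within 2-fold of siCtrl in siPAPα, siPAPα+γ and the library labelled siPAPγ. What lowered PAPOLA reads in siStar-PAP of batch 1 was not tested. The 5 libraries that received a PAP siRNA are called knockdown libraries after their labels. Of 5 genes that HEK293 cells express (NEFL, NEFM, INA, PAX2 and LIN28B) all 5 were listed. More than 50 reads were held by 4 of them in each comparison of 3′READS libraries and by 3 in batch 2. Of PTPRC, ALB and DES, which mark other cell types, 1 was listed and 0 had more than 50 reads in a comparison.

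The 10 genes fell into a higher and a lower set by median level, though the range of AGO2 reached into the lower set. A read marks 1 3′ end whatever the length of the mRNA, so RPM levels need no scaling by mRNA length. Whether 3′ ends of different genes were captured equally well was not tested, so the order is one of read levels. Over the 7 libraries the median level was 74.2 RPM for DROSHA (22.8 to 92.7), 54.8 for XPO5 (41.6 to 97.8), 44.5 for AGO2 (10.1 to 106) and 42.6 for TNRC6A (28.9 to 90.8). It was 12.1 RPM for DICER1 (4.46 to 22.6), 11.8 for DGCR8 (6.89 to 19.6), 6.16 for TNRC6C (0.79 to 10.7), 4.81 for AGO3 (2.90 to 13.3), 3.29 for TNRC6B (0.60 to 9.31) and 2.84 for AGO1 (1.41 to 4.36). The lowest TNRC6A level lay above the highest DICER1 level, and this was the only pair of neighbours in the order whose ranges did not overlap. The siCtrl libraries of the 2 batches differed most for DROSHA (91.3 against 22.8 RPM) and TNRC6C (8.05 against 0.79 RPM), and for these genes the ranges of the 3′READS and 3′READS+ libraries did not overlap. Batch and protocol cannot be told apart.

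**Figure D1:**
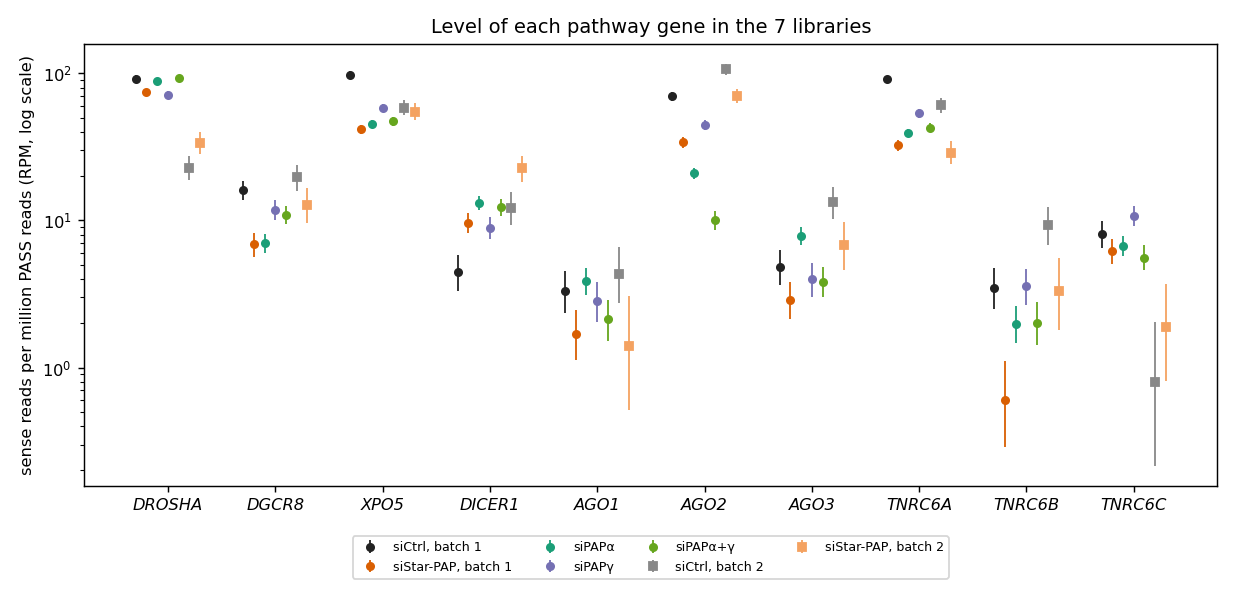
Level of the 10 genes in the 7 libraries, as RPM on a log axis. Circles are 3′READS and squares 3′READS+ libraries, and bars are exact Poisson 95% intervals of the read number. By median level DROSHA, XPO5, AGO2 and TNRC6A lie above the other 6 genes. In siPAPα+γ, however, AGO2 (10.1 RPM) lies below DICER1 (12.3 RPM) and DGCR8 (10.9 RPM). The lowest level of DICER1 is that in siCtrl of batch 1.

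Each knockdown was compared with siCtrl of its own table. A gene was called lower or higher when its RPM differed by over 2-fold and the pair of libraries held more than 50 reads. With 1 library per group there is no test, and intervals are exact and cover counting error only, since the sources used here do not say that PCR copies were removed. In siStar-PAP of batch 1, 4 of the 9 members with enough reads were lower, where 26.2% of 10079 genes were, and 1 was higher, where 4.44% of genes were. In siPAPα 4 of 10 were lower (22.1% of 10808 genes) and 1 higher (8.5%). In the library labelled siPAPγ 0 of 10 were lower (20.7% of 10163 genes) and 0 higher (5.67%). In siPAPα+γ 3 of 10 were lower (26.5% of 10022 genes) and 1 higher (6.98%), and in siStar-PAP of batch 2, 2 of 8 were lower (11.7% of 7127 genes) and 0 higher (3.55%). The median log2 ratio of the members, in the same order of libraries, was -0.97, -0.53, -0.31, -0.64 and -0.61, beside -0.45, -0.26, -0.33, -0.38 and -0.16 for all genes with enough reads. Since the median of all genes was itself below 0, ratios relative to that median are given beside the plain ones. With TMM factors, which remove this shift, the counts of lower and higher members were 1 and 1 in siStar-PAP of batch 1, 1 and 2 in siPAPα, 0 and 1 in the library labelled siPAPγ, 1 and 1 in siPAPα+γ and 1 and 1 in siStar-PAP of batch 2. Shares over all genes were not counted with these factors, so these counts cannot be called high or low for the members.

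**Figure D2:**
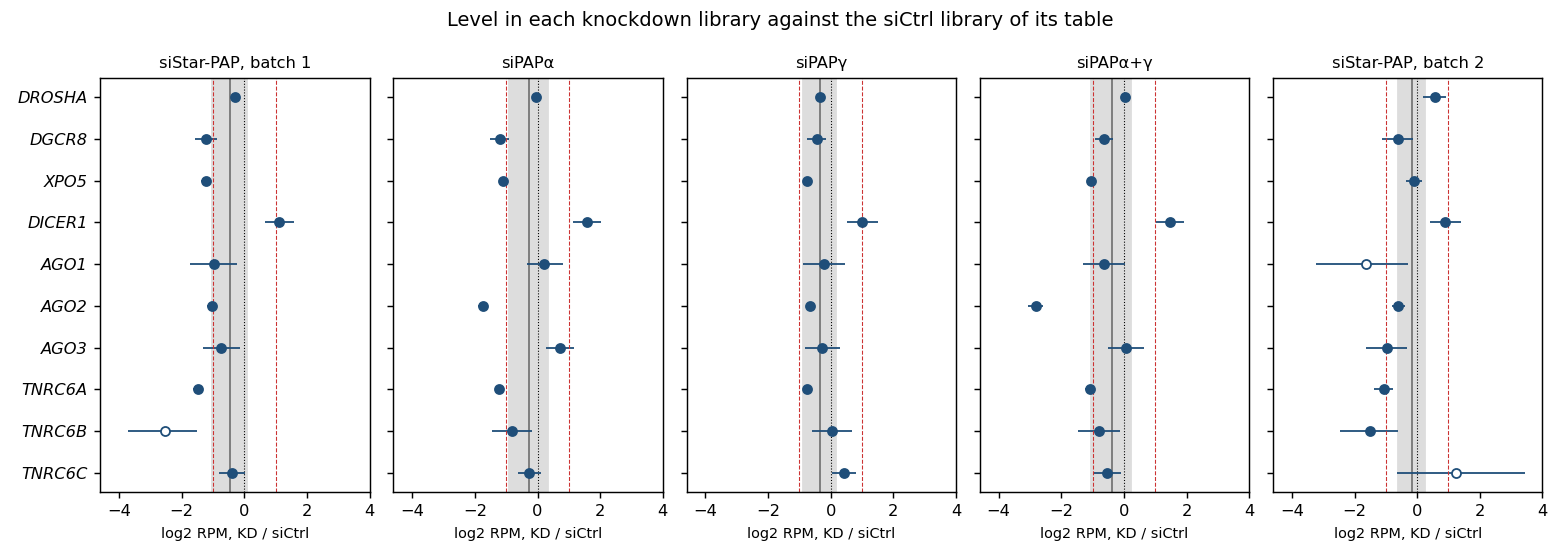
Log2 ratio of RPM, knockdown over siCtrl of the same table, for each gene in the 5 comparisons. Points carry exact 95% intervals for counting error, open points rest on 50 reads or fewer, the grey band and line are the middle 50% and median of all genes with more than 50 reads, red dashed lines mark 2-fold, and DICER1 stands to the right of the band in all 5 panels while TNRC6A stands left of the median line in each.

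Star-PAP was the only knockdown with a second library. In the edgeR quasi-likelihood fit over siCtrl and siStar-PAP of both batches, with batch as a block, 0 of the 10 members passed an adjusted p of 0.05, while 1.08% of 11878 genes were lower and 1.23% higher. At an unadjusted p of 0.05, 3 members passed, among 856 lower and 920 higher genes. The edgeR log2 fold change was 1.36 for DICER1 (SE 0.41, adjusted p = 0.0949), -0.93 for TNRC6A (SE 0.33, adjusted p = 0.167) and -1.64 for TNRC6B (SE 0.69, adjusted p = 0.253). DICER1 was higher and TNRC6A and TNRC6B lower in siStar-PAP in both batches. The other 7 members lay between -0.88 (AGO1) and 0.54 (TNRC6C) with adjusted p of 0.53 or more in edgeR. DESeq2 gave an adjusted p to 6 of the 10 (not to TNRC6B, TNRC6C, AGO1 and AGO3) and called 0 of them, with 2 (DICER1 and TNRC6A) at an unadjusted p under 0.05. Over all genes DESeq2 called 83 lower and 199 higher of the 4992 with an adjusted p. At an unadjusted p under 0.05 it had 415 lower and 656 higher genes. With 1 residual degree of freedom the fit can show large changes only.

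DROSHA, the nuclear RNase, was within 2-fold of siCtrl in every comparison, and used a distal PAS more often than siCtrl in the 4 comparisons with siCtrl of batch 1 but not in batch 2. It had 91.3 RPM in siCtrl, 74.2 after siStar-PAP, 88.3 after siPAPα, 71.2 in the library labelled siPAPγ and 92.7 in siPAPα+γ, and in batch 2 22.8 in siCtrl and 33.7 in siStar-PAP. The log2 ratios were -0.30, -0.05, -0.36, 0.02 and, in batch 2, 0.56 (0.20 to 0.93), which is 0.15, 0.21, -0.03, 0.40 and 0.73 relative to the median gene. Its main PASs lie 149 nt apart in the last exon, 131 nt (L1) and 280 nt (L2) after the stop codon of the annotated transcript. L and I number the last-exon and intronic PASs of a gene from its 5′ end over all 3 tables. The windows of 30 nt that end at these PASs are given as read from the hg19 (GRCh37) genome, with the poly(A) signal in capitals, because both carry the canonical AATAAA.
DROSHA L1, chr5:31401408-31401437, minus strand: tcattgaAATAAAatacagagtcaaatcgc
DROSHA L2, chr5:31401259-31401288, minus strand: ctctttaaatAATAAAattcaagaagcata

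L2 took 8.92% of DROSHA reads in siCtrl, against 16.0% after siStar-PAP, 15.4% after siPAPα, 16.9% in the library labelled siPAPγ and 12.1% in siPAPα+γ. All 4 shares lay above that of siCtrl. Testing the reads of each pair of libraries with Fisher's exact test gave adjusted p of 8.64e-06, 3.00e-06, 1.45e-06 and 0.0278 in this order, and each such test compares 2 libraries and not the conditions. In batch 2 the share was 12.2% in siCtrl (14 reads) and 5.6% in siStar-PAP (8 reads), so that the direction was the opposite there, and the exact test of the distal against the proximal PAS gave an adjusted p of 0.284. RED, the log2 ratio of distal to proximal reads in the knockdown minus that in siCtrl, was 0.96 for siStar-PAP of batch 1 and -1.27 for batch 2.

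DGCR8, the RNA-binding partner of DROSHA, was lower than siCtrl in every knockdown library, though by over 2-fold in 2 only. It had 16.1 RPM in siCtrl, 6.89 after siStar-PAP, 6.98 after siPAPα, 11.8 in the library labelled siPAPγ and 10.9 in siPAPα+γ, and in batch 2 19.6 in siCtrl and 12.7 in siStar-PAP. The log2 ratio was -1.23 (-1.58 to -0.88) in siStar-PAP and -1.21 (-1.51 to -0.90) in siPAPα, which is -0.78 and -0.95 relative to the median gene. It was -0.45 in the library labelled siPAPγ, -0.64 in siPAPα+γ and -0.63 in batch 2. Relative to the median gene these last values were -0.12, -0.26 and -0.46, so DGCR8 lay near the median gene in the library labelled siPAPγ. Its main PASs, L2 and L3, lie 348 nt apart, 1416 and 1764 nt after the stop codon.
DGCR8 L2, chr22:20099018-20099047, plus strand: gctataattagacacttgcttctgtcttgc
DGCR8 L3, chr22:20099366-20099395, plus strand: gtctgaacaCATAAAgcaaactgtccagaa

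Neither window holds AATAAA, and in the 40 nt before L2 none of the 12 hexamers searched was found. L3 took 79.3% of DGCR8 reads in siCtrl, 84.2% after siStar-PAP, 79.4% after siPAPα and 80.0% in the library labelled siPAPγ, but 57.4% in siPAPα+γ. In the table of the double knockdown the share of L3 was 75.6% in siCtrl, and Fisher's exact test gave an adjusted p of 0.000886 for the fall by 18.3 percentage points. Both 3′READS+ libraries used L2 more (64.6% and 75.9%) and L3 less (23.2% and 18.5%) than any 3′READS library.

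XPO5, which exports hairpin precursors, was lower by over 2-fold in 3 of the comparisons with siCtrl of batch 1 and not in batch 2. It had 97.8 RPM in siCtrl, 41.6 after siStar-PAP, 45.3 after siPAPα, 58.1 in the library labelled siPAPγ and 47.1 in siPAPα+γ. The log2 ratios were -1.23 (-1.37 to -1.10), -1.11 (-1.23 to -0.99), -0.75 (-0.88 to -0.62) and -1.05 (-1.18 to -0.93), or -0.79, -0.85, -0.42 and -0.67 relative to the median gene. In batch 2 siCtrl had 58.4 RPM and siStar-PAP 54.8, a log2 ratio of -0.09 (-0.35 to 0.16).

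XPO5 used 5 PASs in its last exon and beyond, and the most distal one took a larger share of reads than in siCtrl of batch 1 in each library compared with it. L1 lies 21 nt after the stop codon, L2 972 nt, L3 1446 nt and L4, the annotated end of the gene, 1534 nt. L5 lies 3157 nt past that annotated end, where the annotation has no gene on the same strand and POLR1C on the other. None of the 5 windows holds AATAAA. L1, with none of the 12 hexamers in the 40 nt before it, and L5, with the variant ATTAAA, are shown as the ends of this range.
XPO5 L1, chr6:43491585-43491614, minus strand: gaaccctgaatcaagcttttgggcatcctt
XPO5 L4, chr6:43490072-43490101, minus strand: gtcAGTAAAaatctcagtttcgtacagaaa
XPO5 L5, chr6:43486915-43486944, minus strand: ctcttATTAAAtattctatctcgcccagtg

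L5 took 3.94% of XPO5 reads in siCtrl (44 of 1117), 12.5% after siStar-PAP, 11.4% after siPAPα, 10.5% in the library labelled siPAPγ and 10.8% in siPAPα+γ. The exact tests gave adjusted p of 1.20e-09, 4.99e-10, 4.03e-07 and 3.76e-08. In batch 2 L5 had 7.8% in siCtrl and 10.3% in siStar-PAP, which did not pass. The gain of L5 stood beside a lower share of L4 in siStar-PAP and the library labelled siPAPγ (21.4% in both, 33.3% in siCtrl), where the exact test gave adjusted p of 9.51e-07 and 1.49e-07. Because of L4, the pair of most-read PASs (L1 and L4) moved towards the proximal PAS in these libraries, with RED of -0.56 and -0.76, while L1 against L5 moved towards the distal one, with RED of 1.75 and 1.29 and exact adjusted p of 2.01e-08 and 5.57e-05. The 3′READS+ libraries read L1 most often, at 68.8% and 71.7%, against 28.6% to 40.1% in the 3′READS libraries.

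DICER1, the RNase that makes mature microRNAs, was the one member whose level was higher than in siCtrl in all 5 comparisons. It had 51 reads in siCtrl (4.46 RPM), 160 after siStar-PAP (9.67 RPM), 332 after siPAPα (13.2 RPM), 132 in the library labelled siPAPγ (8.92 RPM) and 231 in siPAPα+γ (12.3 RPM). In batch 2 it had 61 reads in siCtrl (12.1 RPM) and 96 in siStar-PAP (22.6 RPM). In each table every knockdown library was above its siCtrl, but the level in siCtrl of batch 2 fell within the range of the knockdown libraries compared with siCtrl of batch 1. The log2 ratios were 1.12 (0.65 to 1.60), 1.57 (1.14 to 2.02), 1.00 (0.52 to 1.5), 1.46 (1.02 to 1.93) and 0.90 (0.42 to 1.39), and 1.56, 1.83, 1.33, 1.84 and 1.07 relative to the median gene. The first 4 share siCtrl of batch 1 and its 51 reads, so they are not independent of each other.

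The 3′ ends of DICER1 differed along with its level. A pair of last-exon PASs carries most of its last-exon reads, L1 at 177 nt and L5 at 4270 nt after the stop codon, and L5 is the annotated end of the gene. Both have AATAAA, 26 and 20 nt before the PAS.
DICER1 L1, chr14:95556658-95556687, minus strand: cagAATAAAacatttaacatatgtataaaa
DICER1 L5, chr14:95552565-95552594, minus strand: taaatctccAATAAAgttatcgtctgttca

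Of the reads at L1 and L5, L5 had 60.9% in siCtrl (14 of 23 reads, exact 95% interval 38.5% to 80.3%) and 60.0% in siCtrl of batch 2 (interval 45.9% to 73.0%). It had 84.8% in siStar-PAP (77.7% to 90.3%), 93.7% in siPAPα (90.3% to 96.2%), 91.9% in the library labelled siPAPγ (85.7% to 96.1%) and 98.4% in siPAPα+γ (95.3% to 99.7%), and 89.2% in siStar-PAP of batch 2 (81.1% to 94.7%). The siCtrl libraries of both batches lay within 1 percentage point of each other and below all 5 knockdown libraries. Fisher's exact test of L5 against L1 gave adjusted p of 0.0473, 0.000154 and 0.00271 in the 3 batch 1 knockdowns and 0.00254 in batch 2, with RED of 1.84, 3.26, 2.87 and 2.47. In the table of the double knockdown the rule of the 2 most-read PASs picked L4 and L5, 609 nt apart, with a RED of 0.18 and an exact adjusted p of 0.791. L5 against L1 there had a RED of 5.29 and an adjusted p of 1.25e-06 in the exact test of the most proximal against the most distal PAS, which for siStar-PAP of batch 1 gave an adjusted p of 0.0511 for the same pair and so did not call it. The mean distance from the stop codon to the 3′ end, over last-exon reads, was 2748 nt in siCtrl and 2633 nt in siCtrl of batch 2, and 3571 to 4091 nt in the knockdown libraries.

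**Figure D3:**
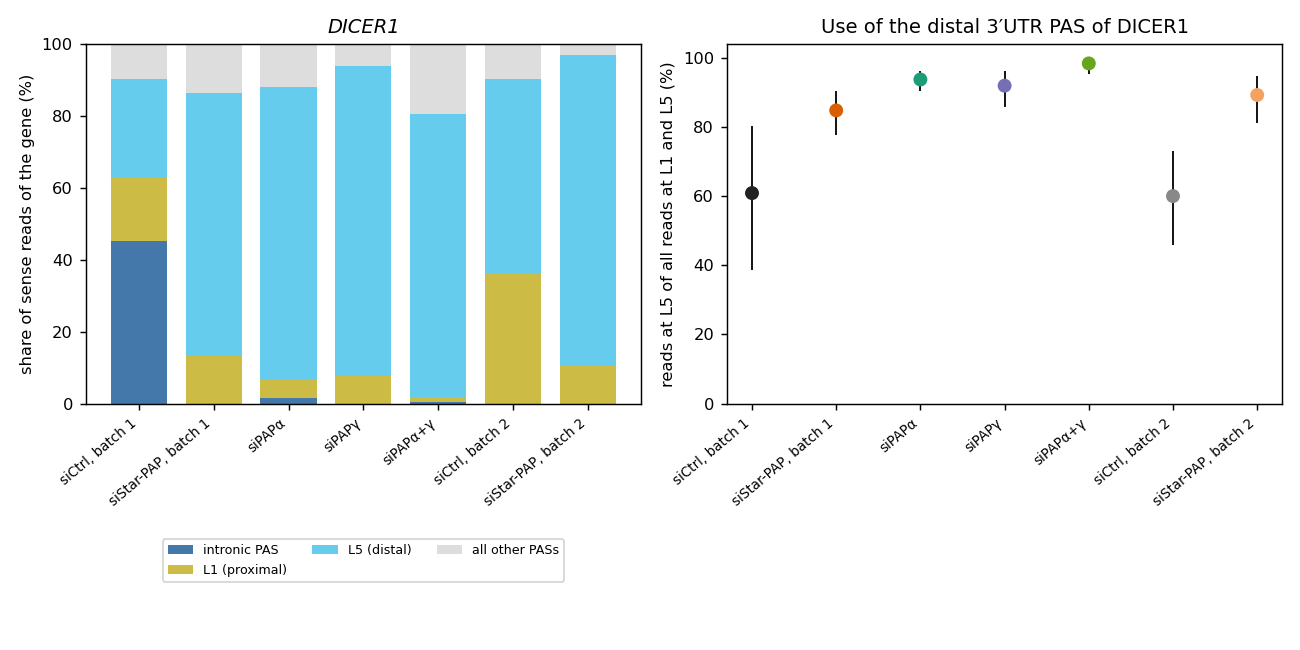
Left, share of the sense reads of DICER1 at its intronic PAS I3, at L1, at L5 and at all other PASs in each library, in percent. Right, share of L5 in the reads at L1 and L5 with exact binomial 95% intervals, where both siCtrl libraries sit near 60% and the 5 knockdown libraries between 84.8% and 98.4%.

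A further difference was at an intronic PAS, I3 at position 95575263 of chromosome 14, which was singled out after its values were seen. It held 23 of the 51 DICER1 reads in siCtrl (45.1%), and 0 reads after siStar-PAP, 5 after siPAPα, 0 in the library labelled siPAPγ and 1 in siPAPα+γ. I3 was not listed in the table of batch 2, where the intronic reads of DICER1 in siCtrl were 6 of 61, at another PAS. Among the 3′READS libraries only siCtrl of batch 1 was high. Over all genes the share of reads at intronic and other upstream PASs ranged from 3.63% to 4.94% and did not stand apart in that library (4.83%). Counting last-exon reads alone, an alternative chosen after seeing the data, the log2 ratios of DICER1 were 2.08, 2.54, 2.03 and 2.37 in the comparisons with that siCtrl and 1.05 in batch 2.

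The stretch between L1 and L5 holds microRNA seed matches that an mRNA ending at L1 lacks. miR-103 and miR-107 have been described as repressors of DICER1, and let-7 microRNAs have been described as acting on DICER1 mRNA too, so their mature sequences are shown, from RefSeq (GRCh38.p14), with the seed (bases 2 to 8) in capitals.
hsa-miR-103a-3p: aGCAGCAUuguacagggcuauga
hsa-miR-107: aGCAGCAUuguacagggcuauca
hsa-let-7a-5p: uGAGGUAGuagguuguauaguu

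miR-103a and miR-107 share a seed, whose match ATGCTGC occurred 5 times in the 4093 nt between L1 and L5 and 0 times in the 177 nt between the stop codon and L1. Of 37616 stretches of the same length that end at a last-exon PAS of any gene, 27.6% held it at least once. Matches per stretch were not counted there, so how unusual 5 matches are cannot be read from this share. These stretches are genomic and can include introns and coding sequence, whereas that of DICER1 lies in its 3′UTR. The let-7 match CTACCTC occurred 0 times in the DICER1 stretch, where 22.4% of such stretches held it. The coding sequence of DICER1 was not searched, so this 0 says nothing on let-7 matches there. Only the sense strand was searched, and a match describes the sequence and shows no binding. The 5 matches are printed in capitals in their order along the mRNA, to show how far they spread.
DICER1 match 857 nt after L1, chr14:95555793-95555816, minus strand: tatcacacctaaaatATGCTGCag
DICER1 match 1458 nt after L1, chr14:95555192-95555215, minus strand: ttgatgcttcgtggaATGCTGCat
DICER1 match 2662 nt after L1, chr14:95553988-95554011, minus strand: tccgcagtcctaactATGCTGCgt
DICER1 match 3933 nt after L1, chr14:95552717-95552740, minus strand: aatatttaccatcacATGCTGCag
DICER1 match 3985 nt after L1, chr14:95552665-95552688, minus strand: attcatacagtaatcATGCTGCag

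AGO2, the Argonaute with slicing activity that siRNAs rely on, was lower in every knockdown library, and lowest against its siCtrl in siPAPα+γ, the library with no batch in the labels. It had 69.7 RPM in siCtrl, 34.0 after siStar-PAP, 20.9 after siPAPα, 44.5 in the library labelled siPAPγ and 10.1 in siPAPα+γ. In batch 2 it had 106 RPM in siCtrl and 70.1 in siStar-PAP. The log2 ratio in siPAPα+γ was -2.81 (-3.05 to -2.58), from 807 reads in siCtrl of that table to 189, and it was -1.74 (-1.90 to -1.58) in siPAPα and -1.03 (-1.19 to -0.88) in siStar-PAP. Relative to the median gene these were -2.43, -1.48 and -0.59. In the library labelled siPAPγ and in siStar-PAP of batch 2 the log2 ratios were -0.65 and -0.60, or -0.32 and -0.43 relative to the median gene. In the table of batch 1 all AGO2 sense reads were at L1, 275 nt after the stop codon, whereas the 3′READS+ table also listed L2, 438 nt further on, with 12.9% of reads in siCtrl and 21.8% in siStar-PAP. The exact test of that difference gave an adjusted p of 0.0268. The annotated end of AGO2 lies further on, at position 141530255 of chromosome 8, and no PAS beyond L2 was listed.

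AGO1 and AGO3, which load microRNAs but are not known for efficient slicing, were read at a few RPM. AGO1 had 38 reads in siCtrl, 28 after siStar-PAP, 97 after siPAPα, 42 in the library labelled siPAPγ and 40 in siPAPα+γ, and 22 and 6 in siCtrl and siStar-PAP of batch 2. Its log2 ratio was -0.97 (-1.73 to -0.23) in siStar-PAP, 0.22 (-0.34 to 0.80) in siPAPα, -0.23 in the library labelled siPAPγ and -0.64 in siPAPα+γ. AGO3 had 55 reads in siCtrl, 48 after siStar-PAP, 197 after siPAPα and 59 in the library labelled siPAPγ, while siCtrl and siPAPα+γ had 42 and 72 in their own table and siCtrl and siStar-PAP of batch 2 had 67 and 29. Its log2 ratio in siPAPα was 0.71 (0.27 to 1.16), the highest of the Argonaute genes there, and in batch 2 it was -0.96 (-1.64 to -0.31). At this depth AGO1 and AGO3 did not pass the 2-fold limit in any comparison in which they had more than 50 reads.

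Most AGO3 reads were intronic in 4 of the 3′READS libraries. PASs upstream of the last exon took 69.1% of its reads in siCtrl, 45.8% after siStar-PAP, 77.2% after siPAPα, 83.1% in the library labelled siPAPγ and 86.1% in siPAPα+γ, against 14.9% and 10.3% in the 3′READS+ libraries. The 69.1% is from the batch 1 table and is no reference for siPAPα+γ. In the table of the double knockdown L2 was the only last-exon PAS of AGO3, with 7.14% of reads in siCtrl and 13.9% in siPAPα+γ. Upstream PASs thus took a smaller share in siPAPα+γ than in siCtrl there, and Fisher's exact test did not pass (adjusted p = 0.496). The most read of them, I4, had 24 of 55 reads in siCtrl and 3 of 48 in siStar-PAP, with an adjusted p of 0.000131 in Fisher's exact test. Its window is shown because it holds AATAAA, 20 nt before the PAS.
AGO3 I4, chr1:36451946-36451975, plus strand: taacagttaAATAAAtgaaccagatctata

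In the 3′READS+ libraries the AGO3 reads were instead at L2 in the last exon, with 83.6% in siCtrl and 82.8% in siStar-PAP, where the 3′READS libraries had 3.4% to 14.6%.

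TNRC6A, a GW182 scaffold, was lower than siCtrl in all 5 comparisons. It had 90.8 RPM in siCtrl, 32.5 after siStar-PAP, 39.1 after siPAPα, 53.5 in the library labelled siPAPγ and 42.6 in siPAPα+γ, and 60.6 in siCtrl and 28.9 in siStar-PAP of batch 2. The knockdown libraries were all below the siCtrl of either batch. The log2 ratios were -1.48 (-1.64 to -1.33), -1.22 (-1.34 to -1.09), -0.76 (-0.90 to -0.63), -1.09 (-1.23 to -0.96) and, in batch 2, -1.07 (-1.38 to -0.76). Relative to the median gene they were -1.04, -0.96, -0.44, -0.71 and -0.90.

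TNRC6A has 2 PASs, 1651 nt (L1) and 2411 nt (L2) after the stop codon, both with AATAAA.
TNRC6A L1, chr16:24836750-24836779, plus strand: atAATAAAccatgactttttggctgctcaa
TNRC6A L2, chr16:24837510-24837539, plus strand: ttatgtggaAATAAAgtgtttgatttaaaa

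L1 had 69.9% of reads in siCtrl, 47.2% after siStar-PAP, 77.6% after siPAPα, 72.9% in the library labelled siPAPγ and 61.9% in siPAPα+γ. The share moved towards L2 in siStar-PAP (RED 1.38, adjusted p of the exact test 1.10e-16) and siPAPα+γ (RED 0.52, exact adjusted p 0.00140), and towards L1 in siPAPα (RED -0.57, exact adjusted p 0.000503). In the library labelled siPAPγ the RED was -0.21, with an exact adjusted p of 0.339. In batch 2 L1 had 8.2% in siCtrl and 6.5% in siStar-PAP, an RED of 0.35 with an exact adjusted p of 0.932. L2 was the main PAS in both 3′READS+ libraries and in siStar-PAP of batch 1, and L1 in the other 3′READS libraries, and the shares of L1 in the 2 protocols did not overlap.

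TNRC6B and TNRC6C, the other GW182 genes, had few reads. TNRC6B had 40 reads in siCtrl, 10 after siStar-PAP, 50 after siPAPα, 53 in the library labelled siPAPγ and 38 in siPAPα+γ, and 47 and 14 in siCtrl and siStar-PAP of batch 2. Its log2 ratio was -2.53 (-3.70 to -1.51) in siStar-PAP of batch 1, on 50 reads in all and so not called, and -1.50 (-2.47 to -0.61) in batch 2. TNRC6C had 92 reads in siCtrl, 102 after siStar-PAP, 169 after siPAPα, 159 in the library labelled siPAPγ and 105 in siPAPα+γ, but 4 and 8 in batch 2, and its log2 ratios in the first 4 comparisons lay between -0.53 and 0.42. An intronic PAS of TNRC6C, I1, had 55.4% of its reads in siCtrl, 73.5% after siStar-PAP, 40.8% after siPAPα, 68.6% in the library labelled siPAPγ and 24.8% in siPAPα+γ. The exact test passed for the rise in siStar-PAP (adjusted p = 0.0331) and the fall in siPAPα+γ (adjusted p = 0.000162), so this PAS moved in opposite directions in these libraries.

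Over all members, the count of PASs with changed use was read against the share over all genes. In siStar-PAP 21 of 57 member PASs passed Fisher's exact test (35.6% of 38451 PASs), in siPAPα 19 of 57 (36.9% of 40926), in the library labelled siPAPγ 11 of 54 (24.4% of 39793), in siPAPα+γ 21 of 55 (35.3% of 40046) and in siStar-PAP of batch 2 5 of 42 (5.52% of 29768). Of the pairs of last-exon PASs, 6 of 9 changed in siStar-PAP (35.6% of 8161 genes), 3 to the distal PAS (18.6% of genes) and 3 to the proximal PAS (17%). In siPAPα 3 of 9 changed (39.5% of 8501), 2 of them distal (23.1%) and 1 proximal (16.4%). In the library labelled siPAPγ 3 of 9 changed (28.5% of 8419), again 2 distal (14.9%) and 1 proximal (13.6%). In siPAPα+γ 3 of 8 changed (43.6% of 7616), with 2 distal (27.2%) and 1 proximal (16.4%), and in batch 2 it was 2 of 10 (7.34% of 6462), 2 distal (3.71%) and 0 proximal (3.62%).

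PAS use of the members was also set side by side between the protocols. Of the 84 PASs of the members over all tables, 20 held at least 5% of the reads of their gene in a library and 50 reads in a table, and for 11 of these 20 the shares of the 3′READS libraries and of the 3′READS+ libraries did not overlap. The same count was not made over all genes, so it cannot be called particular to the members. DGCR8, XPO5, TNRC6A and AGO3 have PASs among the 11. AGO2 L2 is among them because only the 3′READS+ table listed it, and AGO3 I4 was not listed in that table. Shares of PASs of the same gene depend on each other, so the 11 are not independent. For DICER1, L5 had 27.5% of all its reads in siCtrl of batch 1 and 54.1% in siCtrl of batch 2, and L1 had 17.6% and 36.1%. The near-equal L5 shares of 60.9% and 60.0% in these libraries are of the L1 and L5 reads alone, which leaves out the I3 reads and rests on 23 reads in siCtrl of batch 1.

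**Figure D4:**
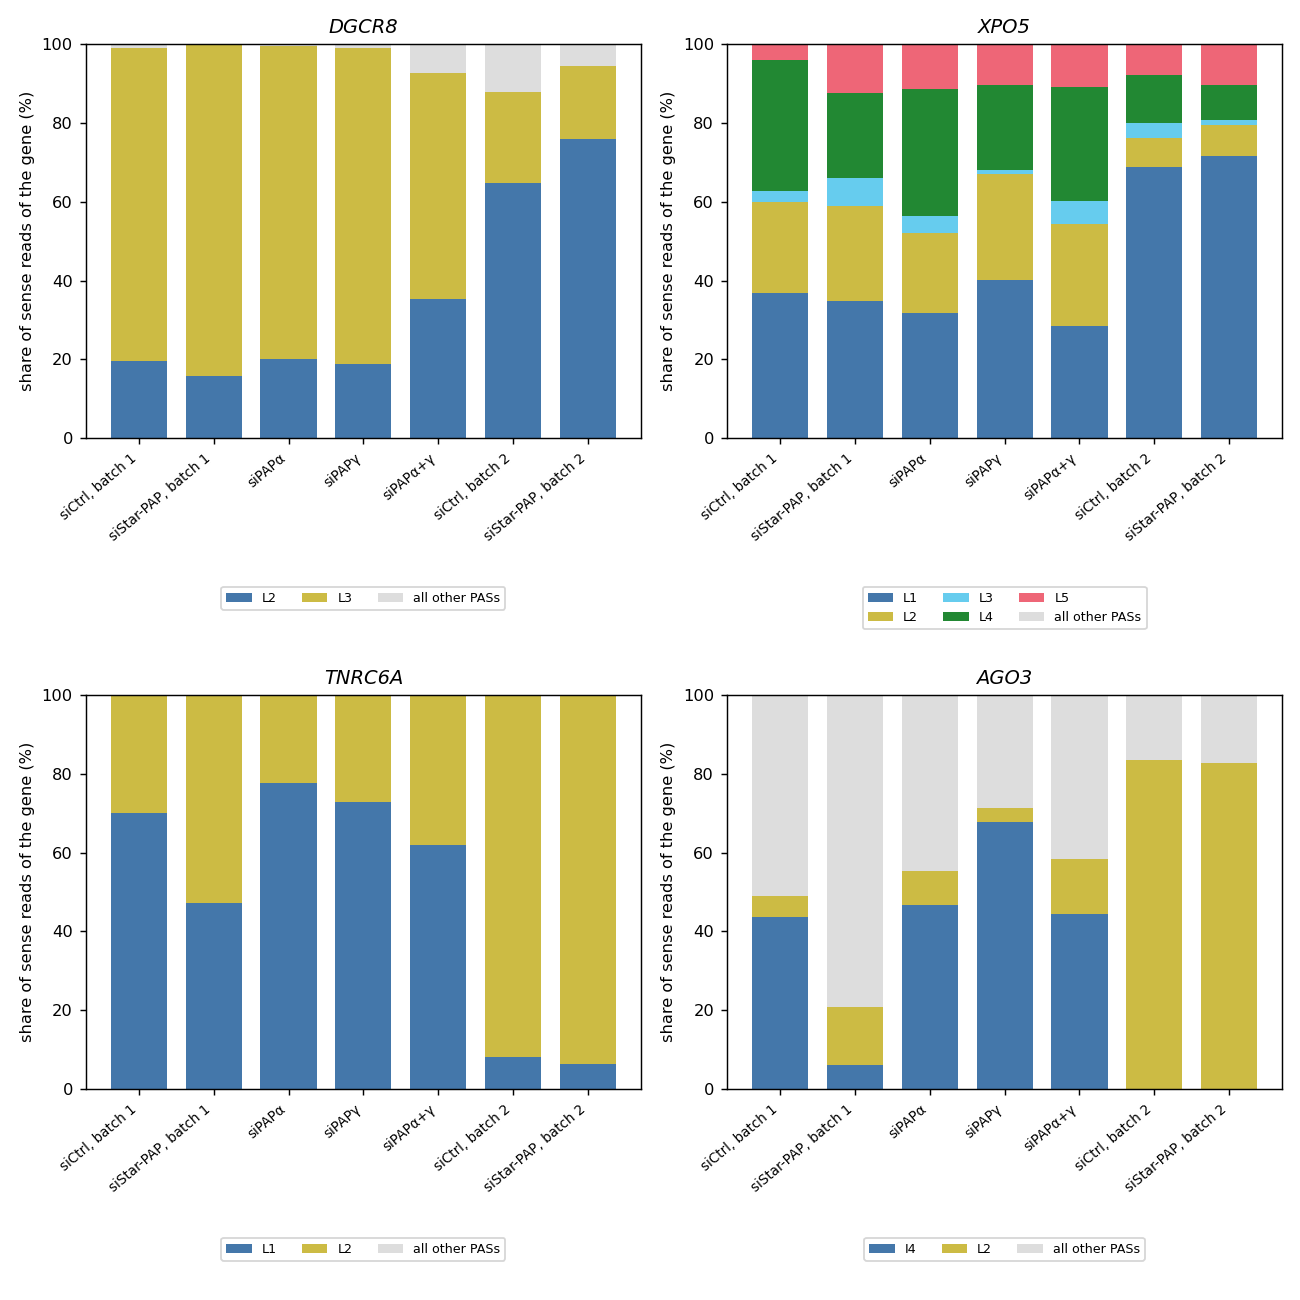
Share of the sense reads of DGCR8, XPO5, TNRC6A and AGO3 at each described PAS in the 7 libraries, in percent, with PASs numbered from the 5′ end (L, last exon, I, intron). The last 2 bars of each panel are the 3′READS+ libraries, in which TNRC6A L1 holds 8.2% and 6.5% of reads against 47.2% to 77.6% in the others.

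The sequence around the described PASs was set beside that of all PASs. AATAAA stood in the 40 nt before 10 of the 20 described PASs, where it stood before 46.3% of 37616 last-exon PASs of the batch 1 table. The 20 include the intronic PASs TNRC6C I1 and AGO3 I4, both with AATAAA, which stood before 47.2% of 13617 intronic PASs. Of the 57 last-exon PASs of the members, 21 had it (36.8%). Any of the 12 hexamers stood before 42 of the 57 and before 83.6% of all last-exon PASs. The trimer ATA, counted as AUA in RNA and looked for between 100 and 41 nt upstream because a Star-PAP motif of that composition has been described, was found at least once before 34 of the 57 (59.6%) and before 59.5% of all last-exon PASs. Only the sense strand was searched.

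Other genes of the pathway were taken from 4 lists and described by their counts, among the genes with more than 50 reads, in the order siStar-PAP of batch 1, siPAPα, the library labelled siPAPγ, siPAPα+γ and batch 2. Over all genes 26.2%, 22.1%, 20.7%, 26.5% and 11.7% were lower and 4.44%, 8.5%, 5.67%, 6.98% and 3.55% higher. Of 8 nuclear partners of the microprocessor, of which 8 had enough reads in the first 4 comparisons and 7 in batch 2, 1 was lower by over 2-fold in siStar-PAP of batch 1, 1 in siPAPα, 0 in the library labelled siPAPγ, 1 in siPAPα+γ and 0 in batch 2, and 0, 2, 0, 1 and 0 were higher. Of 11 DICER1 partners and Argonaute loading factors, 10, 11, 10, 11 and 10 had enough reads, and 2, 2, 4, 4 and 1 were lower and 0 higher in each comparison. Of 14 silencing effectors, which include deadenylase and decapping subunits, 10, 13, 11, 12 and 8 had enough reads, and 1, 2, 1, 2 and 0 were lower and 0, 2, 2, 2 and 1 higher. Of 5 genes that bind, tail or degrade let-7 precursors, 4 had enough reads in each of the first 4 comparisons, where 1 was lower in each and 1 was higher in siStar-PAP of batch 1. In batch 2 only 1 of the 5 had enough reads, so the count there says little, and it did not pass the limit. In the edgeR fit over both batches 0 of the 8, 11, 12 and 4 genes tested of these lists were called, with median log2 fold changes of 0.40, 0.47, 0.30 and 0.65 in the order of the lists, beside -0.48 for the 10 members and -0.0024 for all genes.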

How the data were processed

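The authors mapped 3′READS and 3′READS+ reads to hg19 with Bowtie2 (tool and build per the submitters' processing notes), kept reads with untemplated A residues at the 3′ end (PAS-supporting, or PASS, reads), grouped their ends into PASs of RefSeq genes, and deposited PASS read counts per PAS and library, not normalized, in 3 tables with RefSeq symbols. Upstream antisense rows entered no comparison. Tables held 2347192 to 16191098 sense reads per library. All columns were mapped to samples from the labels.

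Sense counts were summed per gene and divided by the PASS read total the study gives for each library (RPM). The tables hold 54.5% to 70.5% of those totals. PASs of the tables within 24 nt were matched. siCtrl and siStar-PAP of both batches were fitted with edgeR 4.0.16 (R 4.3.3; TMM, filterByExpr, quasi-likelihood test, batch as block), with DESeq2 1.42.0 as an alternative. Batch numbers mark a shared batch and protocol in the labels, and deviations of same-batch libraries correlated (r = 0.824 over 11614 genes), which is the basis of the pairing. PAS use was tested by two-sided Fisher's exact tests in scipy 1.17.1, in place of the authors' SAAP program, with Benjamini-Hochberg adjustment over all PASs or genes of a table at 0.05. Tests were checked on simulated counts. Intervals are exact at the 95% level and cover counting error only. Nothing in the sources used here says that libraries of a group came from separate cultures.

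Stop codons and gene ends are from GENCODE v44 lifted to GRCh37, the build of the tables. Members, lists and settings were chosen with earlier results of these data known. All 10 members are named, with PASs of at least 5% of the reads of the gene in a library and 50 reads in a table, and other genes only as siRNA targets or counts. Alternatives covered scaling, fold and read limits, PAS merging, PAS pairs and tools.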

Additional observations from a re-analysis of the deposited data

Results flagged for a closer look

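Reads in the antisense direction upstream of the members' promoters lay outside the comparisons, and among the 10 genes only AGO2 had such a PAS listed. In the table of the double knockdown it held 5 reads in siPAPα+γ and 0 in siCtrl, where a count of 0 allows up to 3 reads, and this is why it is given. In batch 2 siCtrl had 4 reads and siStar-PAP 2.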

How the results depend on the processing

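Of the 74 counts recomputed under another setting, 49 stayed within 1.5 times the value in the report and 25 did not. The count of 0 members called for Star-PAP over both batches was 0 with RLE factors, no filter and without the replicate block, and in DESeq2 0 of the 6 members given an adjusted p, but without the block edgeR called 0 of 11878 genes and gave DICER1 an adjusted p of 1.00, and its adjusted p over these alternatives was otherwise 0.0543 (no filter) to 0.205 (DESeq2). Leaving out either batch leaves no residual degree of freedom and gives no count. The within-batch log2 ratio with TMM factors was 1.08 to 1.59 for DICER1, and for XPO5 it ranged from -0.75 (batch 1 alone) to 0.086 (batch 2 alone), which reverses its direction. With TMM factors, members lower by over 2-fold numbered 1 in siStar-PAP (batch 1), siPAPα, siPAPα+γ and batch 2, and members higher numbered 2 in siPAPα and 1 in the library labelled siPAPγ and batch 2. With totals of the deposited tables, 1 was lower in siPAPα+γ and 1 higher in the library labelled siPAPγ. Above 1.5-fold, 3 were lower in the library labelled siPAPγ, 6 in siPAPα+γ and 5 in batch 2, and 2 were higher in siPAPα, 1 in the library labelled siPAPγ and 1 in batch 2. With no minimum beyond 1 read, 1 was higher in batch 2. A further limit of 10 percentage points left 11, 6, 12 and 3 changed PASs in siPAPα, the library labelled siPAPγ, siPAPα+γ and batch 2. With at least 50 reads in each library, 3 of 4 pairs changed in siStar-PAP (batch 1). A 2-fold limit on the ratio left 1 pair in siPAPα, siPAPα+γ and batch 2, and the most proximal against the most distal PAS gave 5 pairs in siPAPα. That pair also turned RED to -0.074, 0.63, 0.83, 1.27 and 0.80 for DGCR8 (siStar-PAP of batch 1, siPAPα, the library labelled siPAPγ, siPAPα+γ, batch 2), to 1.75, 1.29 and 0.34 for XPO5 (siStar-PAP of batch 1, the library labelled siPAPγ, batch 2), to 1.00 for AGO1 in the library labelled siPAPγ, and to 0.58 for TNRC6B and -0.094 for DROSHA in siPAPα+γ, and no value was taken where a count of 0 made RED infinite. The causes were not tested. Under these other settings, level, PAS and pair counts were made for the members only, so no share over all genes stands beside them.

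Depth limits AGO1, AGO3, TNRC6B, TNRC6C and siCtrl DICER1, which have 55 reads or fewer in a siCtrl library. Every condition but Star-PAP has 1 library, and the protocol cannot be told apart from the batch.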
